A study of Glycine max with 30 samples.

Results

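Trimethylation of histone H3 at lysine 27 (H3K27me3) was mapped in soybean, Glycine max cultivar Williams 82, by chromatin immunoprecipitation and sequencing (ChIP-seq), and 1064 regions were retained in the seedling list and in none of the lists of 4 embryo stages. They make up 5.05% of the 21082 regions obtained when the H3K27me3 lists of all 5 stages were merged. The regions were chosen by measured values. In each list of enriched intervals, here called islands, the lowest 5% by ChIP read count over control read count were dropped, islands that shared at least 1 bp were merged, and a region was kept when the seedling list held it and no embryo list did. Every such region is a single seedling island, so the seedling list of 18724 retained islands splits into these 1064 and 17660 others that share a merged region with an embryo island.

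Embryos were taken at 4 stages and staged by the seed they came from. Seeds 2.5 to 3.5 mm long gave the cotyledon stage and seeds 6 to 7 mm long gave early maturation. A seed weight of 200 to 250 mg marked mid-maturation, and yellow seeds weighing 230 to 500 mg marked late maturation. Seedlings were collected 8 days after sowing. Each stage had 2 biological replicates with antibodies to H3K27me3, to H3K4me3 and to total H3, which was the control. The authors deposited 1 list per stage and mark for both replicates together, so no spread between replicates can be given and no difference between stages was tested. Intervals below cover counting error only, and neighbouring regions share their libraries. Formaldehyde was applied to frozen, ground late maturation embryos for 15 minutes on ice and to the other tissues for 10 minutes, so in comparisons with late maturation the stage and the protocol cannot be told apart.

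H3K27me3 is written by Polycomb repressive complex 2 and covers genes that are kept silent, often along the whole gene. In plants the complex is known to shut down the seed programme after germination and to hold organ-specific and flowering genes off in tissues that do not need them. H3K4me3 lies at the 5′ ends of transcribed genes and is associated with Trithorax-group activity. A region that carries both marks in a whole organ may have them on the same nucleosomes or in different cells, and a mark present in some of the cells cannot be told apart from a weaker mark in all of them. The genome build of the lists is not given in the sources used here, so positions are those of the lists, counted from 1, with no gene attached.

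The seedling-only regions were short and modestly enriched. Their median width was 1600 bp (lower quartile 1000 bp, upper quartile 2400 bp, range 400 to 7600 bp). The other seedling islands had a median of 3200 bp and reached 76800 bp. Of the seedling-only regions, 25.2% were at most 1000 bp wide and 11.4% were wider than 3000 bp, against 9.20% and 51.6% of the other seedling islands. Together the 1064 regions covered 1934200 bp and held 185571 ChIP reads and 168552 control reads.

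The ChIP count over the control count, which the choice of regions used, had a median of 1.03 in seedling-only regions (95% interval 1.01 to 1.06) and of 1.42 in the other seedling islands (1.41 to 1.43). The authors' deposited fold over control is this ratio multiplied by 1.71 throughout the seedling list, so the median region had a deposited fold of 1.77. Per kb of region, the median was 93.1 ChIP reads and 86.7 control reads in seedling-only regions, and 110 ChIP reads and 76.9 control reads in the other seedling islands. Seedling-only regions thus had fewer ChIP reads and more control reads per kb. By ratio, 469 regions were under 1, 488 were from 1 to under 1.5, 71 from 1.5 to under 2 and 36 at 2 or more. Each of the 1064 regions passed a deposited false discovery rate of 0.05, the highest value being 0.00739. The lists were deposited at unlike limits: this rate reached 0.491 in the seedling list and 0.498 in the late maturation list, and stayed under 0.05 in the other embryo lists.

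**Figure D1:**
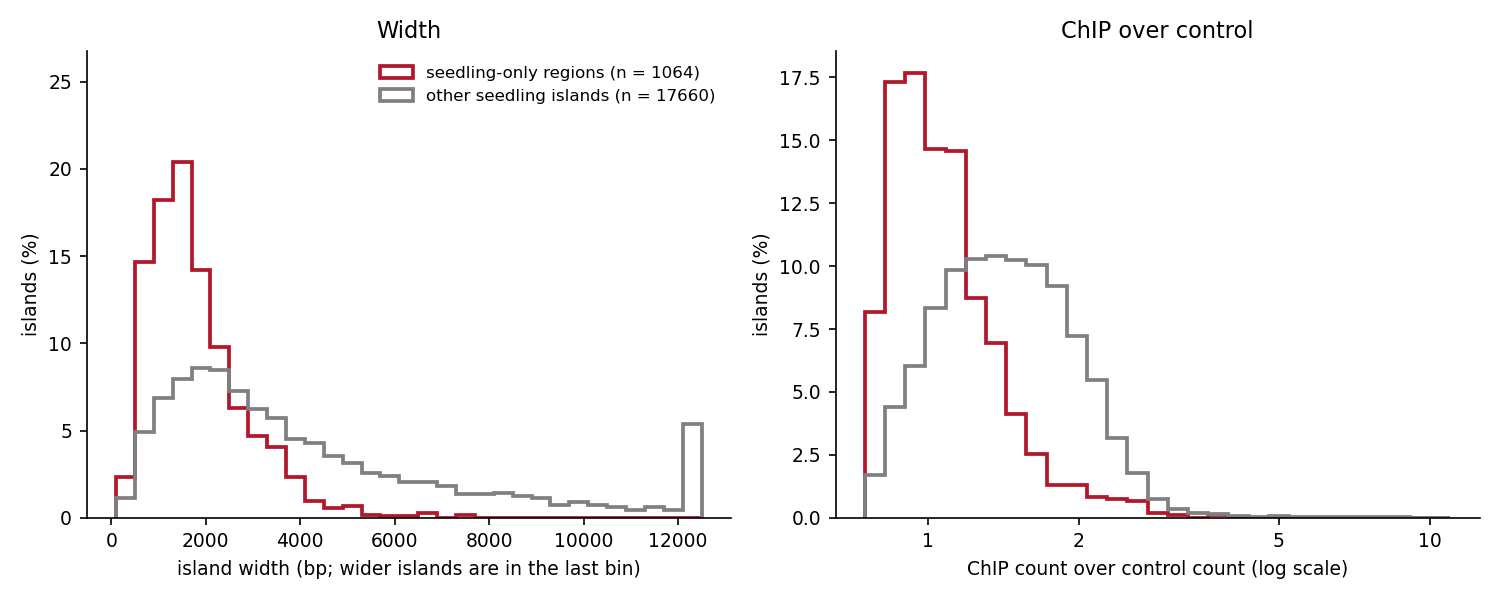
Share of islands by width in bp (left) and by ChIP count over control count on a log scale (right) for the 1064 seedling-only H3K27me3 regions and the 17660 other islands of the seedling list. Seedling-only regions lie at smaller widths (median 1600 bp against 3200 bp) and at lower ratios (median 1.03 against 1.42), both of which the choice of regions could set.

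The highest ratio belonged to a region of 800 bp at chr2:11423001-11423800, with 240 ChIP and 63 control reads and a ratio of 3.81. It had no H3K4me3 peak at any stage, and the nearest embryo H3K27me3 island lay 9.20 kb away. The next region, of 1400 bp at chr11:11801201-11802600, had 434 ChIP and 144 control reads, a ratio of 3.01. An H3K4me3 peak lay on it in all 5 lists, and the scores given by the authors were 194, 249, 254 and 178 in the embryo lists from cotyledon to late maturation and 57.1 in seedlings. Scores of different lists are on scales of their own: the list medians were 89.9, 137, 99.3, 64.7 and 60.6 in that order, so the region lay above the median in each embryo list and below it in seedlings.

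The region with the third highest ratio, 2.88, was also 1 of the 2 widest. It spanned 7600 bp at chr18:46009201-46016800 and held 1779 ChIP and 617 control reads, the highest ChIP count of all 1064 regions. H3K4me3 peaks at this place measured 3821, 3636, 3305 and 3410 bp in embryos, youngest first, and 1743 bp in seedlings. Here and below, widths are summed where several peaks met a region, as at late maturation in this one. The summed width was smallest in seedlings. The best score there was 17.2, against 175, 248, 262 and 200 in the embryo lists from cotyledon to late maturation.

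On chromosome 16, a region of 4400 bp from 4790801 to 4795200 had 871 ChIP and 305 control reads (ratio 2.86). Its H3K4me3 peak was 1927, 1764, 1322, 684 and 1125 bp wide from the cotyledon stage to seedlings, so here late maturation had the narrowest peak. A region of 5200 bp at chr14:4534201-4539400 had 1175 and 433 reads (ratio 2.71) and H3K4me3 peaks that summed to 2782, 3169, 2990, 2028 and 1104 bp in the same order. The last of the 6 highest ratios, 2.66, was at chr17:5720401-5722400, with 372 ChIP and 140 control reads. It carried an H3K4me3 peak in seedlings only, 240 bp wide with a score of 8.81.

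Among the widest regions, one at chr19:34638601-34646200 was also 7600 bp wide, with 1008 ChIP and 450 control reads (ratio 2.24). Its H3K4me3 peaks measured 1780, 1750, 1425, 558 and 617 bp from the cotyledon stage to seedlings, which puts late maturation and seedlings well below the 3 earlier stages. This region was no longer seedling-only when islands within 1000 bp of each other were merged. A region of 6800 bp at chr8:46148401-46155200 (1507 and 595 reads, ratio 2.53) had 4221, 4066, 3560, 3292 and 1931 bp of H3K4me3. On chromosome 4, the region from 44975401 to 44982000 (580 and 485 reads, ratio 1.20) had H3K4me3 peaks of 2542, 2999, 2606, 4467 and 238 bp. In each of these the summed width of the seedling peaks was smaller than at the 3 earlier embryo stages. The remaining wide regions lay at chr8:14634601-14641200, described below, and at chr2:1507201-1513400. The region on chromosome 2 had a ratio of 1.31 and little H3K4me3, with 209 bp at mid-maturation and 536 bp in seedlings. It also overlapped an embryo island that had been dropped for its low ratio, and was not seedling-only when the embryo lists were used as deposited.

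H3K4me3 was not used to choose the regions, and many of them carried it, at embryo stages as well as in seedlings. A peak overlapped a seedling-only region by at least 1 bp in 496 regions (46.6%, 95% Wilson interval 43.6 to 49.6) in cotyledon-stage embryos. Early maturation gave 509 regions (47.8%, 44.8 to 50.8), mid-maturation 530 (49.8%, 46.8 to 52.8) and late maturation 418 (39.3%, 36.4 to 42.3). The seedling list gave 557 (52.3%, 49.3 to 55.3). Over all 18724 retained seedling islands the shares were 30.6%, 34.2%, 42%, 30.7% and 42.3% in the same order. In the 17660 other islands they were 29.7% (29.0 to 30.4), 33.4% (32.7 to 34.1), 41.6% (40.8 to 42.3), 30.2% (29.5 to 30.9) and 41.6% (40.9 to 42.4). Over all ratios the intervals did not overlap at any of the 5 stages, but they did overlap among regions with an H3K27me3 ratio of 1.5 or more, as given below. The distance between seedling-only and other islands was 16.9 percentage points at the cotyledon stage and 8.25 at mid-maturation.

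Wider islands can meet more peaks, and seedling-only regions are narrow, so the shares were also set side by side within width classes. Among islands of up to 1000 bp, 53.4% of seedling-only regions had a seedling H3K4me3 peak (interval 47.4 to 59.2), against 29.3% of the other islands (27.1 to 31.6). From 1200 to 2000 bp the shares were 48.6% (44.2 to 53.1) and 30.0% (28.6 to 31.6), and from 2200 to 3000 bp they were 54.5% (47.6 to 61.3) and 33.4% (31.8 to 35.0). Above 3000 bp they were closer, 61.2% (52.3 to 69.4) and 51.4% (50.4 to 52.5), and the intervals overlapped. At the cotyledon stage, the same 4 classes gave 47.8%, 41.9%, 53.5% and 51.2% in seedling-only regions and 25.6%, 21.8%, 22.4% and 36.2% in the other islands.

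The ratio of ChIP to control count also differed between the sets, so the shares were also set side by side within ratio classes. Under a ratio of 1, a seedling peak was present in 56.3% of seedling-only regions (51.8 to 60.7, n = 469) and 34.8% of the other islands (32.8 to 36.8). From 1 to under 1.5 the shares were 49.4% (45.0 to 53.8, n = 488) and 35.6% (34.5 to 36.7). From 1.5 to under 2 they were 46.5% (35.4 to 58.0, n = 71) and 47.1% (45.7 to 48.4), and at 2 or more they were 52.8% (37.0 to 68.0, n = 36) and 54.2% (52.4 to 56.1). Seedling-only regions with a ratio of 1.5 or more thus had no higher seedling share than other islands of like ratio, though they were few. They were also much narrower. Median widths in these classes, lower ratio first, were 1200 and 1300 bp in seedling-only regions and 4400 and 4600 bp in the other islands. Shares at like width and like ratio together were not computed, so these classes do not compare islands of like width. For cotyledon peaks the 4 classes, lowest ratio first, gave 47.3%, 45.9%, 42.3% and 55.6% in seedling-only regions and 25.9%, 24.5%, 32.2% and 42.8% in the other islands. In both classes from 1.5 up, the intervals of the 2 sets overlapped for the H3K4me3 list of every stage. With equal numbers of islands per H3K27me3 list, which keeps the higher ratios, 42.7% of seedling-only regions (39.4 to 46.1, n = 826) had a seedling peak. Only 351 of the 1064 regions were still seedling-only under that setting, so this share is not one of the regions described here. The share in the other islands was not computed under it.

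**Figure D2:**
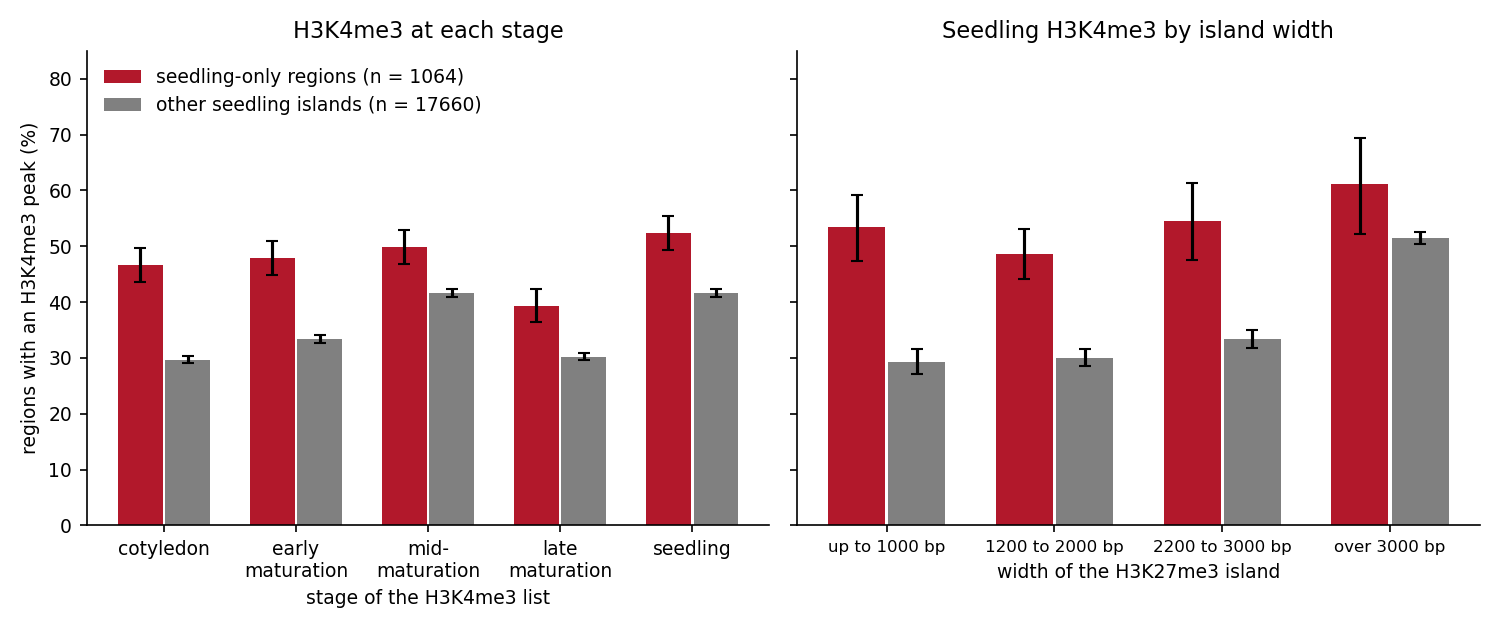
Left, share of seedling-only H3K27me3 regions (red) and of other seedling islands (grey) that overlap an H3K4me3 peak of each stage. Right, the same for the seedling H3K4me3 list by island width, where the shares are 53.4% and 29.3% up to 1000 bp and 61.2% and 51.4% above 3000 bp, with 95% Wilson intervals as error bars in both plots.

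H3K4me3 of the same stage was more frequent in seedling-only regions than in cotyledon-only or late-maturation-only regions; early- and mid-maturation-only regions, 32 and 45 in number, were not compared. Seedling-only regions had a seedling peak in 52.3% of cases. Of the 3173 H3K27me3 regions of the cotyledon stage only, 18.3% (17.0 to 19.7) had a peak in the cotyledon H3K4me3 list, and of the 701 regions of late maturation only, 17.5% (14.9 to 20.5) had one in the late maturation list. Shares over all retained cotyledon or late maturation islands are not given here, so these values cannot be set against their own lists. The H3K4me3 lists also differ in length, with 52891 peaks in seedlings, 44248 at the cotyledon stage and 41536 at late maturation. Against the seedling H3K4me3 list for all 3 sets, 23.8% (22.3 to 25.3) of cotyledon-only regions had a peak. The share was 26.8% (23.7 to 30.2) in late-maturation-only regions, beside the 52.3% in seedling-only regions. Median widths were 1600 bp for seedling-only, 2000 bp for cotyledon-only and 2200 bp for late-maturation-only regions. Median deposited folds were 1.77, 1.90 and 1.67 in that order. No test of these differences was made, because each set rests on 1 pooled list.

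H3K4me3 coverage was highest at most 100 bp from the centre of the seedling-only regions. A region of the median width, 1600 bp, ends before 1 kb from its centre, and whether peaks are centred within regions was not tested. At the centre of the region, 31.5% of the 1064 were covered by a cotyledon peak, 33.6% by an early maturation peak, 34.1% by a mid-maturation peak, 23.4% by a late maturation peak and 32.6% by a seedling peak. At 1 kb from the centre, averaged over both sides, coverage was 11.7%, 11.4%, 10.3%, 7.24% and 8.69% in that order, and at 6 kb it was 8.51%, 8.27%, 8.04%, 6.58% and 8.13%. Of the other seedling islands, 8.64% were covered at the centre by a cotyledon peak and 12.8% by a seedling peak. Where a peak was present, it covered a median of 62.4%, 65.1%, 61.2% and 50.4% of a seedling-only region in the embryo lists, youngest first, and 50.5% in the seedling list. In 90 regions at the cotyledon stage and 65 in seedlings the whole H3K27me3 region lay within H3K4me3 peaks.

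**Figure D3:**
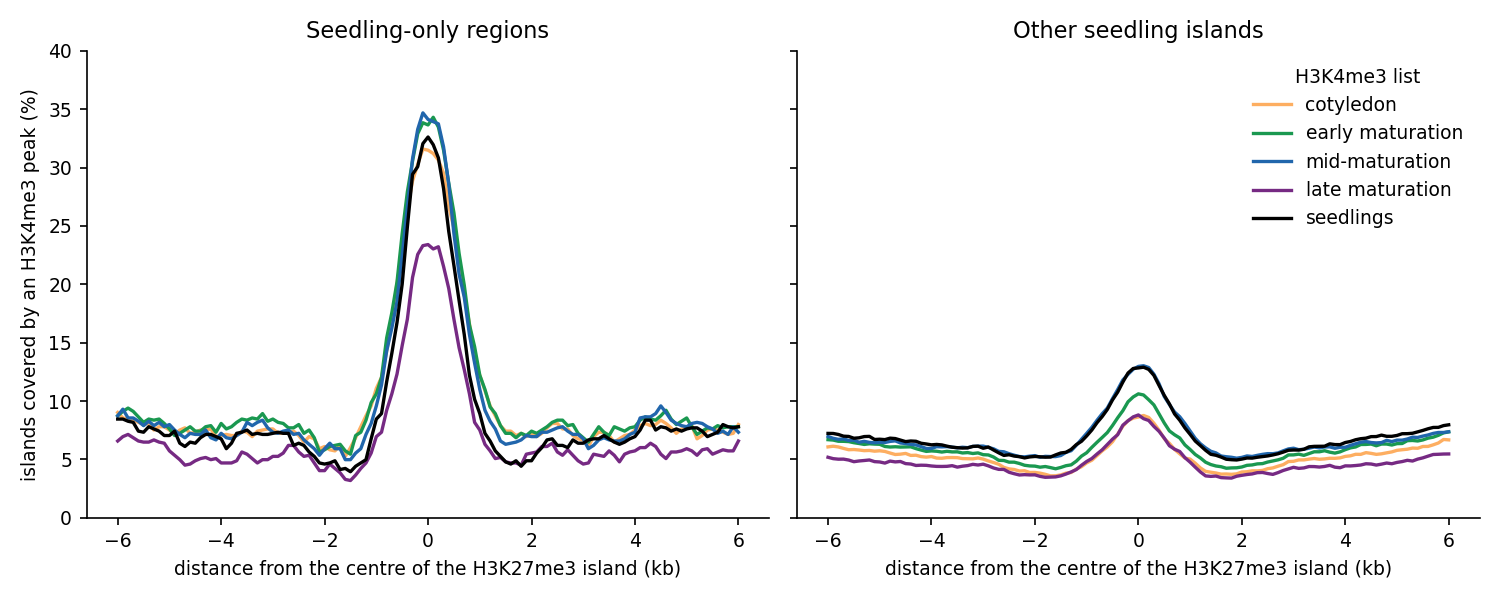
Percentage of islands covered by an H3K4me3 peak of each stage, by distance in kb from the centre of the H3K27me3 island, for seedling-only regions (left, n = 1064) and other seedling islands (right, n = 17660). In seedling-only regions the 5 lines reach between 23.4% and 34.7%, with late maturation lowest, and at 1 kb from the centre the seedling line (8.69%) lies below those of the 3 earlier embryo stages (10.3% to 11.7%).

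H3K4me3 was present at every stage or at none in 764 seedling-only regions (71.8%, interval 69.0 to 74.4), a share near the 72.1% of all retained seedling islands. The balance between every stage and none differed. A peak was found in all 5 lists in 351 seedling-only regions (33.0%, interval 30.2 to 35.9, where all retained seedling islands gave 22.8%) and in no list in 413 (38.8%, 35.9 to 41.8, where all gave 49.3%). The 351 and the 413 regions had the same median width of 1600 bp and median ratios of 1.06 and 1.05. Their read densities differed: with H3K4me3 in all 5 lists the medians were 111 ChIP and 100 control reads per kb, and with none they were 86.8 and 80. The control density thus moved with H3K4me3, and its part in the presence of these islands was not tested. The next most frequent pattern was H3K4me3 in every list but late maturation, in 67 regions (6.30%, all retained islands 3.74%).

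Few regions had H3K4me3 throughout embryo development and lacked it in seedlings. In all, 13 of the 1064 regions (1.22%, interval 0.715 to 2.08, all retained islands 0.449%) had a peak in all 4 embryo lists and none in seedlings. The one with the highest ratio was at chr18:5253401-5254800, with 268 ChIP and 121 control reads (ratio 2.21) and H3K4me3 peaks of 642, 967, 1231 and 852 bp from the cotyledon stage to late maturation. The next was a region of 4800 bp at chr3:45168801-45173600, with 733 and 398 reads (ratio 1.84). Its peaks were 3134, 3113 and 3025 bp wide at the 3 earlier embryo stages and 271 bp at late maturation, so the peak was already small there.

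The region at chr8:14634601-14641200, 6600 bp wide with 625 and 439 reads (ratio 1.42), had peaks summing to 2321, 4085, 2439 and 1394 bp in the embryo lists. A region of 600 bp at chr1:41411201-41411800, with 68 and 53 reads (ratio 1.28), followed. The embryo H3K4me3 peaks at that place, 1926, 985, 999 and 316 bp wide from the cotyledon stage to late maturation, covered 491, 466, 473 and 259 bp of it. The ratios of all 13 regions ran from 0.785 to 2.21, so H3K4me3 was missing in seedlings at weak H3K27me3 regions too.

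H3K4me3 in seedlings and in no embryo list was found in 51 regions (4.79%, interval 3.66 to 6.25, all retained islands 4.35%), a share near that of the whole list. The highest ratios among them were the chromosome 17 region above, a region at chr14:6526601-6528600 (144 and 77 reads, ratio 1.87), which its 302 bp peak met by 6 bp only, and a region of 800 bp at chr13:20945401-20946200 (102 and 61 reads, ratio 1.67), of which the peak covered 710 bp. Among regions with no H3K4me3 at any stage, the highest ratios after the chromosome 2 region were 2.52 at chr5:2365001-2365400 and 2.41 at chr16:4719001-4719400. Both were 400 bp wide and held 53 and 70 ChIP reads, so their ratios rest on few reads.

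Where H3K4me3 was present at every stage, its peak width in seedlings was mostly smaller than at the 3 earlier embryo stages. Widths are those of whole peaks, also outside the H3K27me3 region, and were summed where several peaks met a region. In the 351 regions with a peak in all 5 lists, the median H3K4me3 width was 1224, 1308, 1194 and 853 bp in the 4 embryo lists, youngest first, and 990 bp in the seedling list. Region by region, the seedling width over the mean of the 3 earlier embryo lists had a median of 0.860 (95% interval 0.819 to 0.900), and 252 of the 351 regions (71.8%, 66.9 to 76.2) were narrower in seedlings. The 3915 other seedling islands with H3K4me3 in all 5 lists had a median of 1.05, and 42.5% of them were narrower in seedlings. Counting only the bases that peaks shared with the H3K27me3 region, the median was closer to equal width, 0.943 in seedling-only regions and 1.05 in the other islands. Across all 33443 H3K4me3 regions present in the 5 lists, whether or not H3K27me3 was near, the median was 0.990 and 52.7% were narrower in seedlings. Late maturation was left out of the mean because its peaks came from another protocol, and with it the median in seedling-only regions was 0.909.

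The difference in width was greatest in the regions with a ratio of 2 or more. Of the 16 regions with H3K4me3 in all 5 lists and an H3K27me3 ratio of 2 or more, 15 had narrower H3K4me3 in seedlings than the mean of the 3 earlier embryo lists, and in 11 the seedling width was 0.5 times that mean or less. Their median was 0.487 (quartiles 0.373 and 0.704). The medians in the classes below were 0.772 for ratios from 1.5 to under 2 (n = 22), 0.857 from 1 to under 1.5 (n = 168) and 0.892 under 1 (n = 145). The share of regions narrower in seedlings did not follow this order below the highest class, at 72.7%, 68.5% and 73.1% from ratios of 1.5 to under 2 down to those under 1, and widths of 0.5 times the embryo mean or less made up 13.6%, 11.3% and 15.2%. No test was made, and the highest class is small. In the other seedling islands the medians were 1.04, 1.04, 1.05 and 1.07 from the highest class to the lowest. By region width, the median was 0.690 in the 43 seedling-only regions over 3000 bp and 0.900 in those of up to 1000 bp.

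**Figure D4:**
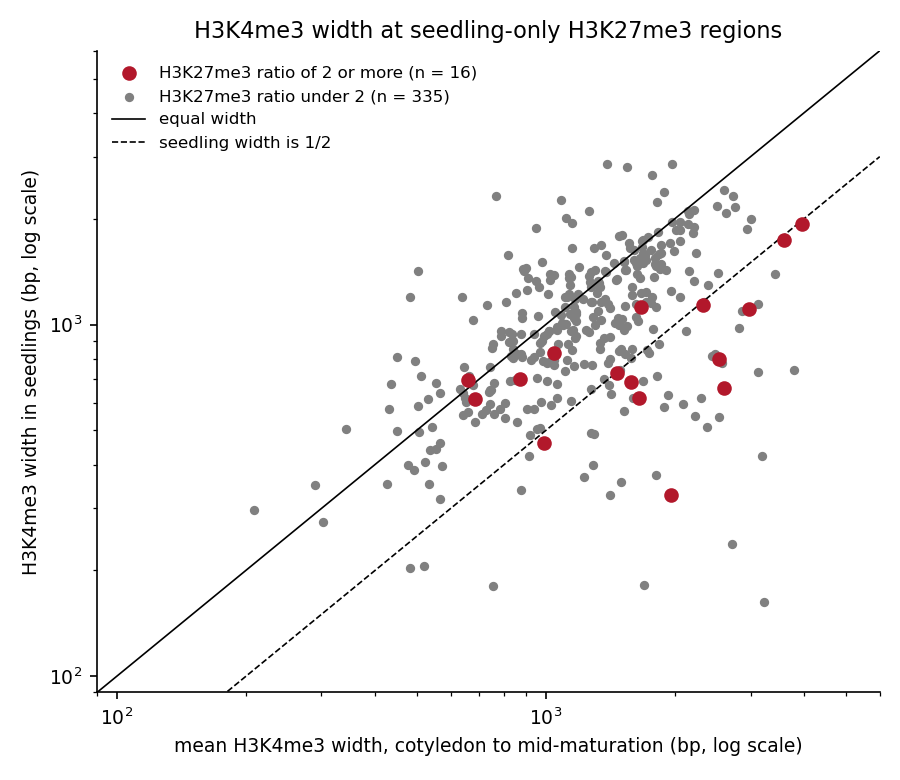
H3K4me3 peak width in seedlings (bp, log scale) against the mean width at the cotyledon, early and mid-maturation stages (bp, log scale) at the 351 seedling-only H3K27me3 regions with an H3K4me3 peak in all 5 lists. Widths are summed where several peaks met a region. Points below the solid line are narrower in seedlings (252 of 351), and 11 of the 16 regions with an H3K27me3 ratio of 2 or more (red) lie on or below the dashed line, where the seedling width is 0.5 times the embryo mean.

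The rank of the peaks within each H3K4me3 list was also lower in seedlings than at the 3 earlier embryo stages in the strongly enriched regions. In the 16 regions of ratio 2 or more, the best peak had a median percentile of its own list of 87.0, 88.8, 67.2 and 36.1 in the embryo lists, youngest first, and 38.3 in the seedling list. In the 145 regions with a ratio under 1 the percentiles were 54.3, 50.6, 51.8, 42.9 and 47.9. The strongly enriched regions therefore stood high in the 2 earliest lists and in the lower part of the late maturation and seedling lists, and the weak regions stood near the middle of each. The lists differ in length, so a percentile gives a place within a list and not a change in signal.

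Along the chromosomes the seedling-only regions followed the rest of the seedling list. In the middle 50% of the chromosomes, measured to the farthest end in any list, lay 261 of them (24.5%, interval 22.0 to 27.2), where all retained seedling islands gave 23.2%. The first 10% of the chromosome length held 210 regions and the last 10% held 214, and the 10% just past the midpoint held 30. The share of seedling islands that were seedling-only ran from 4.32% on chromosome 16 (36 regions, interval 3.14 to 5.92) to 7.41% on chromosome 8 (77 regions, 5.97 to 9.17). A seedling H3K4me3 peak was present in 50.6% (44.5 to 56.6) of the regions in the middle and 52.9% (49.5 to 56.4) of those outside it.

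**Figure D5:**
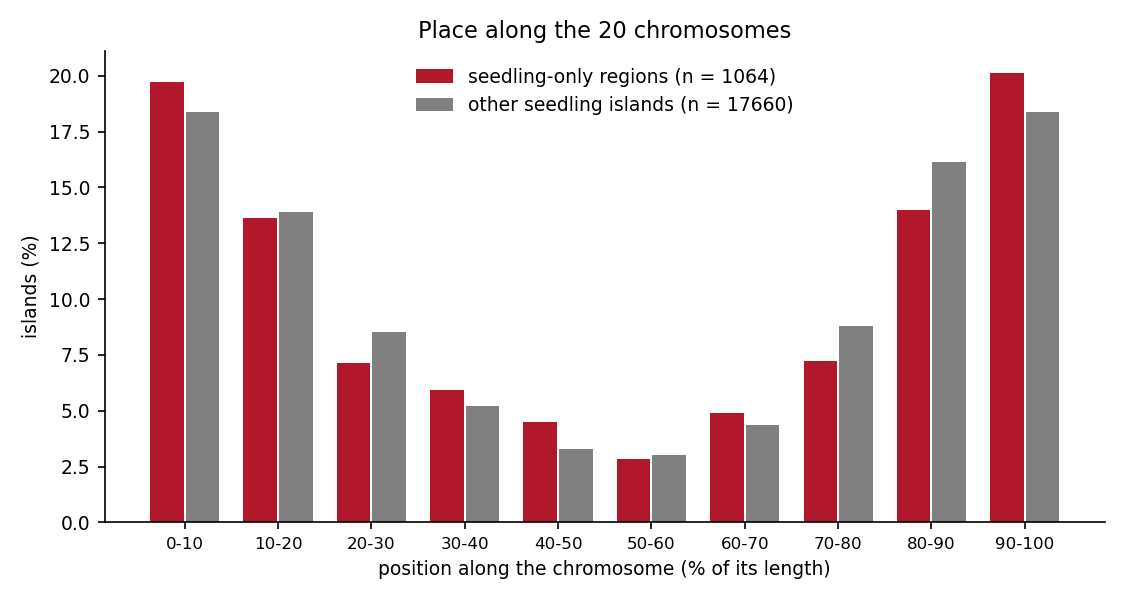
Share of the 1064 seedling-only H3K27me3 regions (red) and of the 17660 other seedling islands (grey) in each 10% of the chromosome length, summed over the 20 chromosomes. Both sets are densest at the outer ends, with 19.7% and 20.1% of seedling-only regions in the first and the last 10%.

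Distances to embryo H3K27me3 were measured without a reference set, so they do not show whether these regions lie closer to it than other places do. The median distance from a seedling-only region to the nearest retained embryo island was 5800 bp, 115 regions (10.8%) had one within 1 kb and 367 (34.5%) at 1 to 5 kb, while 27 (2.54%) had none within 100 kb. By stage the median distance was 7000 bp to a cotyledon island, 12600 bp to an early maturation, 13000 bp to a mid-maturation and 10800 bp to a late maturation island, lists that differ in length. Regions within 1 kb of an embryo island carried a seedling H3K4me3 peak in 40% of cases, those at 1 to 5 kb in 50.7%, those at 5 to 20 kb in 55.1%, those at 20 to 100 kb in 60% and the 27 at 100 kb or more in 33.3%, so the share had no single direction with distance.

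With a gap of at most 50 kb, 785 seedling-only regions (73.8%) had no neighbour of their kind. Of the rest, 198 formed 99 pairs, 60 formed groups of 3, 16 groups of 4 and 5 a group of 5. Counts for regions placed evenly or for other islands were not made. Whether seedling-only regions are more scattered or more grouped than such a reference was therefore not tested. The group with most members held 5 regions over 82.8 kb at chr14:229801-312600, with widths of 800 to 2800 bp and ratios of 0.898 to 1.37. A seedling H3K4me3 peak lay on 4 of the 5, and no other seedling island came between them, though 3 embryo islands did. Of the 4 groups with 4 regions, the first in order of position spanned 32 kb at chr3:460801-492800, with ratios of 1.08 to 1.48 and H3K4me3 in seedlings on 2 of the 4.

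The 5% threshold in the seedling list was a ratio of 0.784. Just inside it were a region of 2200 bp at chr15:42728601-42730800, with 145 ChIP and 185 control reads, and one of 3400 bp at chr18:4290201-4293600, with 193 and 246. Just outside were islands with 202 and 258 reads (ratio 0.783) at chr19:49586001-49589200 and with 108 and 138 reads (also 0.783) at chr4:35435401-35436600. Of the 984 seedling islands dropped, 382 shared no base with a retained embryo island. Which regions count as seedling-only depended on the length of the lists. With the same number of islands per list, taken from the highest ratio down, 826 regions were seedling-only, and 351 of the 1064 were still among them, since 711 of the 1064 lay under the lowest ratio then kept in the seedling list.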

How the data were processed

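Chromatin from 5 stages was immunoprecipitated for H3K4me3, H3K27me3 and total H3 with 2 biological replicates each, 30 samples in all, and sheared to 100 to 500 bp, per the labels' protocols. The submitters' processing notes name Bowtie 0.12.7, SAMtools 0.1.19, MACS2 and SICER 1.1, without roles. The genome build is not given in the sources used here. The 10 deposited lists each hold both replicates. The H3K27me3 lists give, as deposited, the ChIP read count and control read count per island, a fold over control and a false discovery rate (an adjusted p-value); the unadjusted p-value was not used. The H3K4me3 lists give a peak position and the authors' deposited score. The mid-maturation lists were assigned to their stage by the stage code in the sample titles.

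In each H3K27me3 list the lowest 5% of islands by ChIP over control count were dropped, and islands sharing at least 1 bp were merged. Retained seedling islands held 9997729 ChIP and 6299121 control reads; library totals are not used here. H3K4me3 presence needed 1 bp of overlap. Shares have 95% Wilson intervals and medians 95% order-statistic intervals, which cover counting error only. No test was made, because replicates are pooled. The merging, overlap and distance steps were tested on simulated islands. Regions named are the 6 with the highest ratio, the 6 widest, and the 3 or 4 with the highest ratio in each of 4 H3K4me3 patterns, with the 2 groups of most neighbours. The members and rules were chosen with earlier results of these data known. Python 3.11.15, numpy 2.4.6, pandas 2.3.3, scipy 1.17.1 and matplotlib 3.10.9 were used.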

Additional observations from a re-analysis of the deposited data

Results flagged for a closer look

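Signal below the 5% threshold was found in the embryo lists. Of the 1064 seedling-only regions, 149 (14.0%) overlapped an embryo H3K27me3 island that had been dropped for its low ratio of ChIP to control count, and 11 overlapped such islands of 2 or more lists. The cotyledon list accounted for 100 regions (9.40%), late maturation for 45 (4.23%), early maturation for 8 and mid-maturation for 8. The dropped islands at these regions had median ratios of 1.02, 0.477, 0.933 and 0.592 from the cotyledon stage to late maturation. All 100 cotyledon islands, all 8 of early and all 8 of mid-maturation had a deposited false discovery rate of at most 0.05, as did 17 of the 44 late maturation islands. For these 149 regions, absence from the embryo lists rests on the threshold.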

How the results depend on the processing

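Recomputed values were compared with the interval of the reported value. The number of regions has no interval and was compared with limits of 1.5-fold either way. Over 12 alternatives, 98 of 139 recomputed values lay within these limits and 41 outside them. The cause was not tested, except that fewer islands or peaks were used by construction where a list was shortened. The number of seedling-only regions was 1243 with no drop, 1012 with the lowest 10% dropped, 1103 with a deposited false discovery rate of at most 0.05 in place of the drop, 915 with the drop in the seedling list only, 929 with islands within 1000 bp merged, 826 with equal numbers of islands per list and 1321 without the late maturation list. The median width was 1600 bp under every alternative that changed the regions. With no drop the median ratio was 0.938 and 28.6% lay in the middle 50% of the chromosomes, and under the false discovery rate the ratio was 0.985. With 10% dropped the ratio was 1.09, and 42.9% had a cotyledon H3K4me3 peak, 49.0% a seedling peak and 42.8% none. With equal numbers the ratio was 1.34, 19.98% lay in the middle, the H3K4me3 shares from the cotyledon stage to seedlings were 38.3%, 39.8%, 43.2%, 34.6% and 42.7%, with 27% in all 5 lists and 46.6% in none. Without the late maturation H3K27me3 list, an alternative chosen after seeing the data, they were 42.2%, 43.4%, 45.6%, 35.9% and 48.6%, with 29.8% in all and 43.1% in none. With peaks counted within 1000 bp they were 51.7%, 53.2%, 55.5%, 44.6% and 56.3%, with 37.3% and 33.0%. Without the lowest 25% of H3K4me3 scores they were 36.7%, 36.8%, 37.9%, 27.9% and 37.8%, with 21.8% and 52.2%, and 77.2% had narrower H3K4me3 in seedlings. The seedling share was 48.3% with an overlap of at least 200 bp and 49.2% without peaks under 200 bp, the second chosen after seeing the data. With each chromosome cut into 3 equal lengths, the middle one held 14.6%. Under the 4 alternatives for H3K4me3 peaks, the share at each stage, over all ratios, was higher in seedling-only regions than in the other seedling islands. No paired analysis was possible because the 2 replicates of a stage are in 1 list, so neither a replicate block nor leaving out a replicate was run.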

Other observations

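The 413 seedling-only regions with no H3K4me3 at any stage lay a median of 4393 bp from the nearest seedling H3K4me3 peak (quartiles 2077 and 9845 bp). A seedling peak was within 1 kb of 32 of them (7.75%) and within 5 kb of 228 (55.2%). The 8821 other seedling islands with no H3K4me3 had a median distance of 5021 bp, with 7.05% within 1 kb and 49.8% within 5 kb.

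A group of 22 seedling-only regions (2.07%, interval 1.37 to 3.11) had H3K4me3 at the cotyledon, early and mid-maturation stages and in neither late maturation nor seedlings, against 0.849% (0.724 to 0.996) of the other seedling islands. Their H3K27me3 ratios ran from 0.793 to 2.58 with a median of 1.14, and 10 of the 22 lay in the middle 50% of the chromosomes. This pattern was picked after its values were seen, and no test was made.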
